A study of Mus musculus with 22 samples.

Results

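The transcripts described here came from 10 AP-1 and immediate early genes, Fos, Fosb, Fosl2, Jun, Junb, Jund, Atf3, Egr1, Ier2 and Dusp1, out of 40317 genes with at least 1 estimated count in the series. They were chosen by name, and the TPM (a level scaled for transcript length and library size) and the estimated counts of all transcripts of each gene were summed in every library. RNA-seq was performed in 22 libraries of bone marrow cells sorted from C57BL/6 mice, 4 of long-term hematopoietic stem cells (LT-HSC) and 18 of common myeloid precursors (CMP), granulocyte-monocyte precursors (GMP) and megakaryocyte-erythroid precursors (MEP). KO mice were Arid1a f/f;Mx1-Cre+, in which an interferon-inducible Cre removes exon 9 of Arid1a, the gene of a DNA-binding subunit of the SWI/SNF chromatin remodelling complex. WT mice were Arid1a f/f;Mx1-Cre-, so the controls carried the floxed allele too, and mice of both genotypes received 5 doses of poly(I:C) at 8 to 14 weeks of age and were analysed 4 weeks later. The LT-HSC libraries came from WT mice S245 and S269 and KO mice S244 and S270. WT mice 300, 305 and 309 and KO mice 301, 304 and 308 each gave a CMP, a GMP and a MEP library. cDNA of LT-HSC was prepared with SMART-Seq v4, which suits minute RNA inputs, and the precursor libraries with TruSeq from poly-A RNA, so the levels of LT-HSC are given beside those of the precursors with no test between them.

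AP-1 is a dimer of basic leucine zipper proteins. Fos proteins need a partner, such as a Jun protein, to bind DNA, whereas Jun proteins also pair with one another and with members of the ATF family. Immediate early genes such as Fos, Jun, Egr1 and Ier2 need no new protein synthesis to be transcribed, and growth factors, cytokines and stress raise them within minutes through mitogen-activated protein kinases (MAPK) acting on serum response factor, its Ets partners and CREB. Many of these messages are short-lived. The same genes are also known to rise when tissue is dissociated and cells are sorted, so their level in sorted cells can hold a part that arose during handling.

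In the GRCm38 annotation, the Fos family members lie at chr12:85473890-85477273 on the plus strand (Fos), chr7:19302696-19310051 on the minus strand (Fosb) and chr5:32135801-32157842 on the plus strand (Fosl2). The Jun family members lie at chr4:95049034-95052222 on the minus strand (Jun), chr8:84974484-84978718 on the minus strand (Junb) and chr8:70698949-70700616 on the plus strand (Jund). Atf3 lies at chr1:191170296-191218039 (minus), Ier2 at chr8:84661331-84662852 (minus) and Dusp1 at chr17:26505590-26562128 (minus). All 10 genes are annotated as protein-coding. The antisense genes Junos and Gm11175 share 232 exon bases with Jun and 543 with Jund, at no more than 65 and 436.1 estimated counts in any library. No source used here states whether strand entered the counting. Within the shared bases, reads of Jun and Jund therefore cannot be told apart from those of their antisense partners. Dusp1 shares 11 exon bases with Ergic1.

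Of the 10 genes, 8 were found in a RefSeq table of mouse promoters (GRCm38.p6), all but Egr1 and Ier2. The stretches of 100 bases printed here belong to Fos, to the Jun family members Jun and Junb and to the phosphatase Dusp1, and were chosen because these promoters hold different elements. Each is read 5′ to 3′ on the strand of the gene, and capitals mark the cAMP response element TGACGTCA, its part TGACGT, the variant TGACATCA, the TATA box and the CCAAT box. The Fos stretch (chr12:85473790-85473889), the Jun stretch (chr4:95052223-95052322) and the Junb stretch (chr8:84978749-84978848) end at the base before the RefSeq start. The Dusp1 stretch (chr17:26508523-26508622) runs from 150 to 51 bases before it.
Fos: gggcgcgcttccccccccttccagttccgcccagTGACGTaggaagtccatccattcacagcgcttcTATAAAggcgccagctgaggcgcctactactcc
Jun: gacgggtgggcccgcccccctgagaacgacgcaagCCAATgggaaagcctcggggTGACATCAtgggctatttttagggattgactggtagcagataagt
Junb: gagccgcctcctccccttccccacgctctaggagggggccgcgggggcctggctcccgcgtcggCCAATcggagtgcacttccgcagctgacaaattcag
Dusp1: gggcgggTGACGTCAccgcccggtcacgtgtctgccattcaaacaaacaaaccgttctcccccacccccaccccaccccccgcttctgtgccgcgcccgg

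The 8 promoters and all 32851 promoters of the table were searched on both strands from 250 bases before to 50 bases after the start. The cAMP response element TGACGTCA was present in Dusp1, 143 bases before the start, and in 1.79% of all promoters. Its part TGACGT was present in Fos (66 bases before the start), Atf3 and Dusp1, against 7.51% of all promoters, and every TGACGTCA holds it on both strands. TGACATCA stood 45 bases before the start of Jun (3.62% of all promoters). A TATAAA was found in Fos, 33 bases before the start, and in Junb, at the start itself (13.6% of all promoters). CCAAT was found in Jun, Junb and Atf3, at 65 and 36 bases before the start in the first pair (37.4% of all promoters). The AP-1 site TGACTCA (5.2% of all promoters) and the CArG box of serum response factor (1.63%) were found in 0 of the 8. A match, or the lack of one, describes the letters of these windows only. Sequence further from the start and the promoters of Egr1 and Ier2 were not searched.

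The libraries held 40804031 to 65930737 estimated counts, with a median of 52785379. Summed LT-HSC marker genes stood at 726 to 1200 TPM in LT-HSC and at 3.84 to 176 TPM in the precursors. Summed GMP markers stood at 31292 to 46896 TPM in GMP and at no more than 4863 TPM elsewhere, and summed MEP markers stood at 4934 to 7856 TPM in MEP, 2917 to 5881 TPM in LT-HSC and 132 to 1949 TPM in CMP and GMP. Arid1a itself was lower in every KO library than in every WT library of its population, and its log2 fold changes were -1.14, -0.22, -0.40 and -0.14 for LT-HSC, CMP, GMP and MEP (adjusted p = 0.421, 0.0284, 0.0246 and 0.0836). Only 1 exon is removed, so a part of the message remains countable. Among the LT-HSC libraries, that of WT mouse S245 had the smallest total but at least 10 counts on the most genes (27191, against 18504 to 22407 in the others).

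Ier2 was the most abundant of the 10 genes in every population, and Fosb and Atf3 were the least abundant. Ier2, a nuclear immediate early protein, stood at 98.6 to 134.3 TPM in the 4 LT-HSC libraries and at 12.7 to 42.8 TPM in the precursors. Junb stood at 34.8 to 65.7 TPM in LT-HSC and 5.45 to 20.1 TPM in the precursors, and Jund at 30.0 to 46.3 TPM and 6.65 to 14.6 TPM. Egr1, a zinc finger transcription factor, spanned 14.02 to 34.8 TPM in LT-HSC, 2.50 to 4.77 TPM in CMP, 0.169 to 1.29 TPM in GMP and 1.39 to 4.41 TPM in MEP. Fosb was at or below 0.309 TPM and Atf3 at or below 0.538 TPM in every library, and Atf3 was listed at 0 in all 3 KO MEP libraries. For Egr1, Ier2, Junb, Jund and Dusp1, every LT-HSC library lay above every precursor library, whereas Fosl2 was higher in every CMP and GMP library than in LT-HSC.

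**Figure D1:**
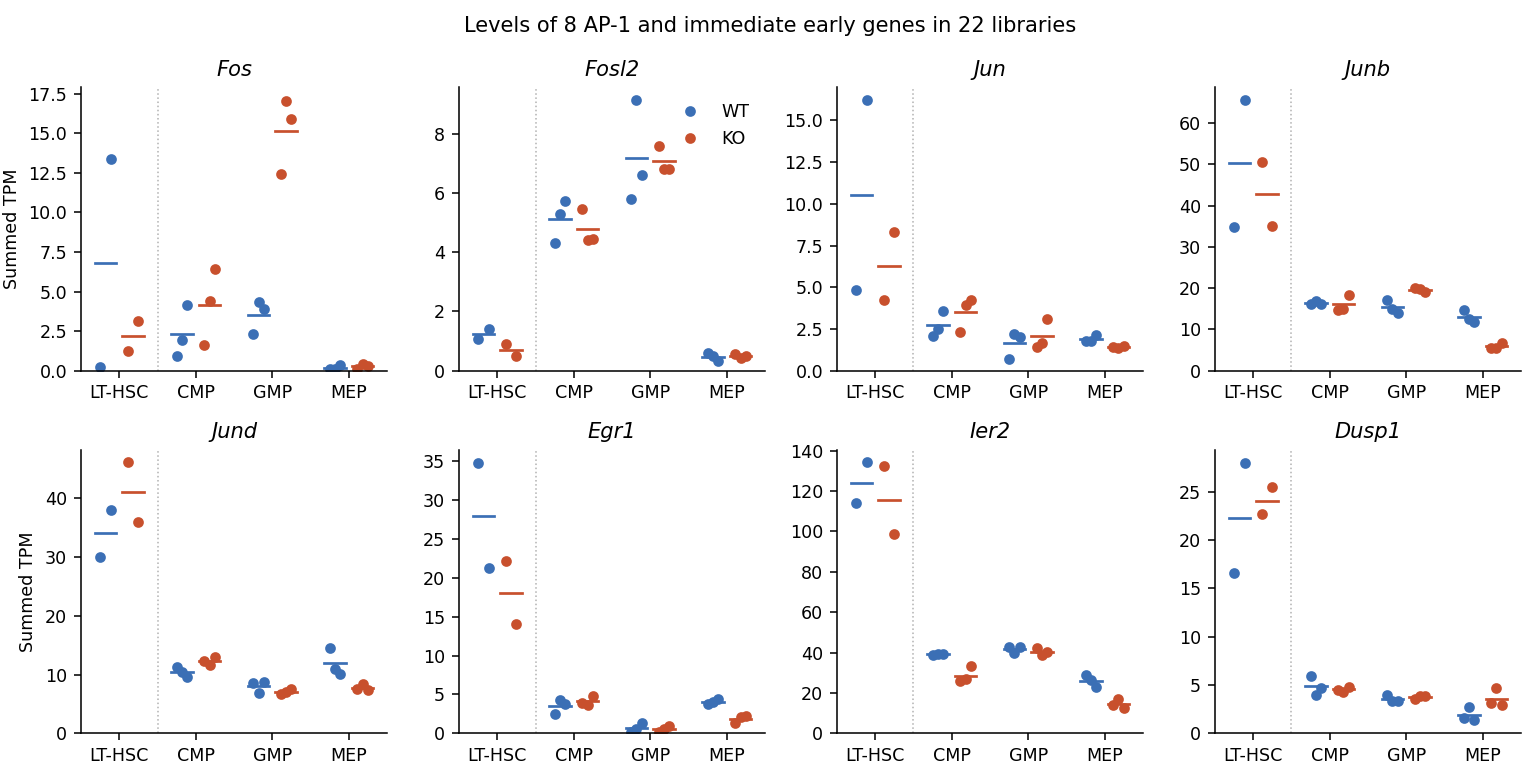
Summed TPM (vertical axis, a separate linear scale from 0 in each panel) of 8 of the genes in 22 libraries, with 1 dot per library, WT in blue, KO in red and a bar at the mean of each group; the dotted line sets LT-HSC, made with another kit, apart from CMP, GMP and MEP. Fos in KO GMP (12.4 to 17.1 TPM) lies above all other precursor libraries, and Junb in KO MEP (5.45 to 6.80 TPM) below them.

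Whether loss of ARID1A changes these genes was examined in each population apart. In LT-HSC no member was called, in CMP Ier2 was lower in KO, in GMP Fos and Junb were higher in KO, and in MEP Junb, Jund, Jun, Egr1 and Ier2 were lower while Dusp1 was higher in KO. In bulk samples such as these, fewer cells of a type and less RNA per cell cannot be told apart. All adjusted p-values were computed with edgeR by its quasi-likelihood F-test and the Benjamini-Hochberg method over every gene tested, and a gene was called at an adjusted p below 0.1. In LT-HSC 0 of 10 members were called (of the 22733 genes tested 0.0792% were, 0.0264% higher and 0.0528% lower), 0 had an unadjusted p under 0.05, and DESeq2 called 0. With 2 libraries per genotype that vary widely, this fit cannot show that the members did not differ in LT-HSC. On data simulated with about the spread of the median gene for every gene, it found none of the genes changed 4-fold. In LT-HSC the median gene had a biological coefficient of variation of 57.9%. Jund, Ier2, Egr1, Junb and Dusp1 had 24.9% to 29.8%, so the simulation does not show what the fit could find for these members. In CMP, 1 of 9 members tested was called, and it was lower (23.4% of all genes tested were called, 10.6% higher and 12.8% lower). In GMP, 2 of 8 were called, both higher (33.9% of all genes, 17.5% higher and 16.3% lower). In MEP, 6 of 8 were called, 5 of them lower (29.4% of all genes, 14% higher and 15.4% lower). Atf3 did not pass the filter on low counts in the precursors, nor did Fosb in GMP and MEP. For LT-HSC, CMP, GMP and MEP, the median log2 fold change of the members tested was -0.45, 0.13, 0.19 and -0.55, beside -0.158, -0.003, -0.006 and -0.002 for all genes tested.

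**Figure D2:**
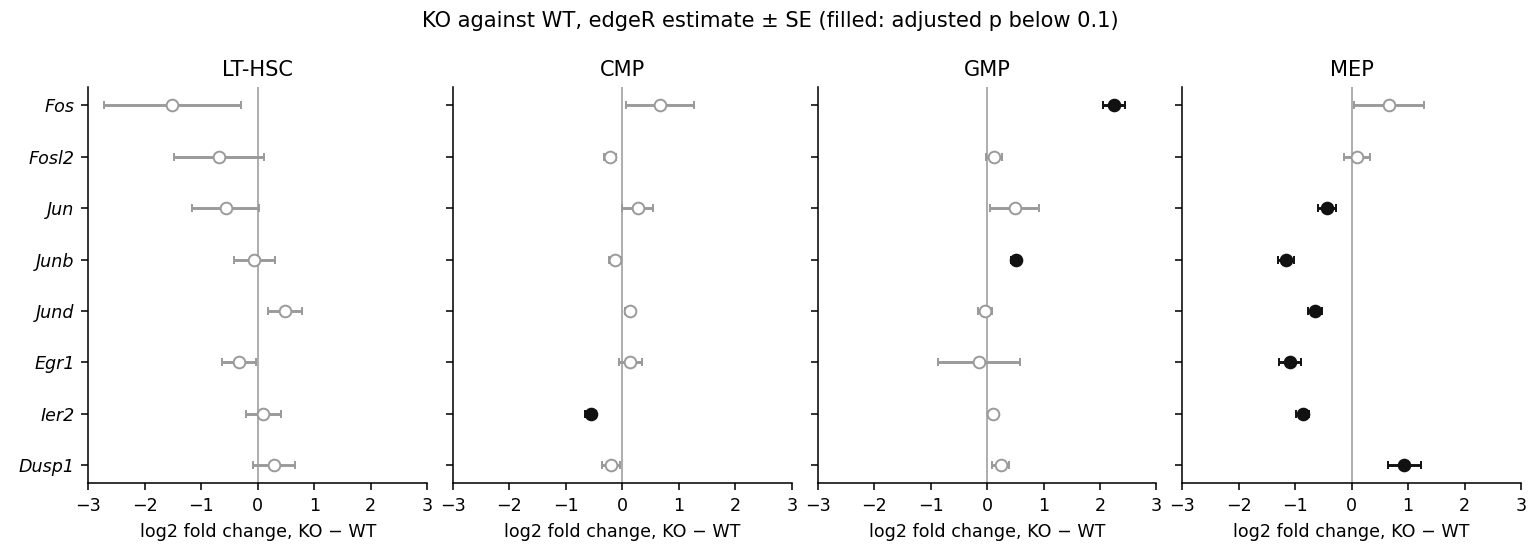
Log2 fold change of KO less WT (horizontal axis) for 8 of the genes in 4 populations, as edgeR's estimate with its standard error as the bar; filled points have an adjusted p below 0.1. LT-HSC holds no filled point and wide bars, Fos stands out at 2.25 in GMP, and in MEP 5 filled points lie below 0 and Dusp1 above it at 0.93.

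Fos, the founding AP-1 subunit, rose in KO GMP. In GMP, Fos stood at 2.33, 4.34 and 3.90 TPM in WT mice 300, 305 and 309 and at 12.4, 17.1 and 15.9 TPM in KO mice 301, 304 and 308. The lowest KO library was thus well above the highest WT library, and the group means were 3.52 ± 1.06 and 15.1 ± 2.4 TPM (SD, n = 3 each). This is a log2 fold change of 2.25 (SE 0.20, adjusted p = 6.26e-05, SE being the standard error), and over 7 other settings and 9 fits with libraries left out it stayed between 2.04 and 2.37 with an adjusted p of at most 0.00248. The rise rested on 195 to 267 estimated counts per WT library and 896 to 1185 per KO library, and the full-length transcript Fos-201 held at least 82.8% of the Fos TPM in every GMP library.

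Fos was not called between genotypes in the other populations. In CMP, Fos spread from 0.919 through 1.94 to 4.16 TPM among the WT mice and from 1.60 through 4.42 to 6.39 TPM among the KO mice, so that the groups overlapped. Its log2 fold change there was 0.66 (SE 0.60, adjusted p = 0.537, 95% interval -0.99 to 2.32). With WT and KO mice paired (300 with 301, 305 with 304 and 309 with 308), the log2 fold change in CMP was 0.77 with an adjusted p of 0.0177. This pairing was inferred from column order and is not stated in the paper, and no other setting called Fos in CMP. In MEP, Fos stood at 0.1002 to 0.334 TPM in WT and 0.1198 to 0.445 TPM in KO, on 4 to 20 estimated counts per library, and the log2 fold change was 0.66 (adjusted p = 0.511). In LT-HSC, the WT libraries of mice S245 and S269 held 0.237 and 13.3 TPM and the KO libraries of mice S244 and S270 held 1.25 and 3.15 TPM, so both KO libraries lay between the WT libraries. The log2 fold change in LT-HSC was -1.51 (adjusted p = 0.876). Without WT mouse S245 it was -2.47, with the lone WT library assumed to vary like the KO libraries.

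Of the other Fos family genes, neither was called between genotypes. Fosl2, which encodes the AP-1 subunit Fra-2, stood in GMP at 5.79, 9.13 and 6.60 TPM in WT and 7.59, 6.80 and 6.82 TPM in KO. Its log2 fold changes for CMP, GMP and MEP were -0.22, 0.13 and 0.10 (adjusted p = 0.224, 0.554 and 0.801). Leaving out WT mouse 300 gave Fosl2 -0.34 in CMP (adjusted p = 0.0511), and leaving out WT mouse 305 gave 0.31 in GMP (adjusted p = 0.0508). Fosb, a close relative of Fos, was measured on 10 to 39 estimated counts per KO CMP library and 6 to 29 per WT CMP library, with a log2 fold change of 0.38 (adjusted p = 0.81). In LT-HSC, Fosb stood at 0.0758 and 0.0762 TPM in WT and at 0.00539 and 0 TPM in KO, which is 9 and 11 estimated counts against 1 and 0 (adjusted p = 0.876).

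Junb, an AP-1 subunit known in mice as a brake on the growth of myeloid cells, moved in opposite directions in KO GMP and KO MEP. In GMP, Junb stood at 17.1, 15.0 and 13.98 TPM in WT mice 300, 305 and 309 and at 20.1, 19.8 and 19.1 TPM in KO mice 301, 304 and 308. All KO libraries were above all WT libraries, with a log2 fold change of 0.51 (SE 0.08, adjusted p = 0.00183). In MEP, Junb stood at 14.6, 12.6 and 11.8 TPM in the same WT mice and at 5.45, 5.51 and 6.80 TPM in the same KO mice. Here all KO libraries were below all WT libraries, and the means were 13.0 ± 1.46 and 5.92 ± 0.764 TPM (SD, n = 3 each). The log2 fold change in MEP was -1.16 (SE 0.14, adjusted p = 0.00085). In CMP, Junb stood at 16.3, 16.9 and 16.1 TPM in WT and 14.8, 15.1 and 18.4 TPM in KO, which overlap (log2 fold change -0.13, adjusted p = 0.498, 95% interval -0.42 to 0.16).

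Jund, the Jun protein known for steady expression and for restraining growth, fell in KO MEP. There it stood at 14.6, 11.004 and 10.1 TPM in WT and at 7.45, 8.36 and 7.36 TPM in KO, with no overlap (log2 fold change -0.65, SE 0.13, adjusted p = 0.00924). In CMP and GMP its log2 fold changes were 0.13 and -0.04 (adjusted p = 0.365 and 0.864). In LT-HSC, Jund stood at 30.0 and 38.1 TPM in WT and at 46.3 and 36.0 TPM in KO, a log2 fold change of 0.48 on CPM (adjusted p = 0.876). Without WT mouse S269, which leaves a lone WT library, it was 0.81.

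Jun, the partner that gives the classical Fos-Jun dimer, was lower in KO MEP by a small amount, and most changes of the analysis ended the call. The MEP libraries held 1.77, 1.77 and 2.13 TPM in WT and 1.43, 1.36 and 1.46 TPM in KO. The groups did not overlap, and the log2 fold change was -0.44 (SE 0.16, adjusted p = 0.0796). Leaving out WT mouse 300 or 309 or KO mouse 301, 304 or 308 raised the adjusted p to between 0.11 and 0.216, leaving out the filter on low counts to 0.154, and fitting all 18 precursor libraries together to 0.475. The log2 fold change itself stayed between -0.50 and -0.34 under all alternatives. In CMP and GMP, Jun had log2 fold changes of 0.27 and 0.49 (adjusted p = 0.603 and 0.464), with overlapping groups. In LT-HSC the 16.2 TPM of WT mouse S269 stood apart from 4.81 TPM in WT mouse S245 and 4.22 and 8.31 TPM in KO. The log2 fold change there was -0.57 (adjusted p = 0.877), and without WT mouse S245, which leaves a lone WT library, it was -1.25.

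Atf3, a stress-induced member of the ATF family that can pair with Jun proteins, could be tested only in LT-HSC, where it stood at 0.373 and 0.538 TPM in WT and at 0.124 and 0 TPM in KO. Both KO libraries were below both WT libraries, and the difference was not called (adjusted p = 0.876). In the precursors it rested on 0 to 11 estimated counts per library.

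Egr1, which the same MAPK signals raise as Fos, fell in KO MEP and was not called in the other populations. The gene lies at chr18:34859823-34864984 on the plus strand. In MEP it stood at 3.77, 4.005 and 4.41 TPM in WT and at 1.39, 2.11 and 2.20 TPM in KO, without overlap. The log2 fold change was -1.09 (SE 0.20, adjusted p = 0.00617). With all 18 precursor libraries in 1 fit the same log2 fold change had an adjusted p of 0.143. In CMP the log2 fold change was 0.14 (adjusted p = 0.706) and in GMP -0.14 (adjusted p = 0.919). In GMP the 95% interval of -2.15 to 1.88 leaves room for large differences, since the WT libraries alone ran from 0.169 through 0.552 to 1.29 TPM. In LT-HSC, Egr1 stood at 34.8 and 21.3 TPM in WT and at 22.2 and 14.02 TPM in KO, which overlap (log2 fold change -0.34, adjusted p = 0.876).

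Ier2 fell in KO CMP and KO MEP and was not called in GMP. In CMP it stood at 38.9, 39.4 and 39.2 TPM in WT and at 25.9, 26.7 and 33.1 TPM in KO. The WT mice were nearly equal, and every KO library was below them (log2 fold change -0.56, SE 0.10, adjusted p = 0.00657). In MEP it stood at 28.7, 26.4 and 22.8 TPM in WT and at 13.8, 16.9 and 12.7 TPM in KO, again without overlap (log2 fold change -0.87, SE 0.11, adjusted p = 0.00113). In GMP the log2 fold change was 0.11 (adjusted p = 0.286, 95% interval -0.08 to 0.29), and the groups overlapped in TPM but not in TMM-normalised CPM.

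Dusp1, a phosphatase that switches off MAPKs and is itself an immediate early gene, was the member that rose in KO MEP. In MEP it stood at 1.60, 2.68 and 1.34 TPM in WT and at 3.16, 4.72 and 2.92 TPM in KO. Every KO library was above every WT library, with a log2 fold change of 0.93 (SE 0.29, adjusted p = 0.0537). Leaving out WT mouse 300 or 309 or KO mouse 301 or 304 raised the adjusted p to 0.152, 0.14, 0.103 and 0.172, with log2 fold changes of 0.84, 0.73, 1.0 and 0.73. In CMP and GMP the log2 fold changes were -0.20 and 0.24 (adjusted p = 0.498 and 0.296).

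Markers of other cells also differed between the genotypes in these libraries. Of all genes tested, 23.4%, 33.9% and 29.4% were called in CMP, GMP and MEP, and some of the marker counts lie near or below these shares. In GMP, where Fos and Junb rose, all 6 basophil and mast cell markers were lower in KO (780 to 1246 TPM summed in WT, 127 to 176 TPM in KO). Of the 7 GMP markers, 5 were higher and 1 lower in KO GMP (31292 to 36816 TPM in WT, 41627 to 46896 TPM in KO), and of the 7 LT-HSC markers 1 was higher and 4 lower (20.7 to 24.6 TPM in WT, 14.3 to 15.5 TPM in KO). Of 8 mature neutrophil markers, 4 were higher and 2 lower there (176 to 390 TPM in WT, 415 to 1348 TPM in KO). Of 5 macrophage markers tested in GMP, 1 was higher and 1 lower (22 to 28.2 TPM in WT, 38 to 51.1 TPM in KO), with Cd5l and Mertk under 0.1 TPM in all KO libraries. The higher one was Adgre1 (log2 fold change 3.37, adjusted p = 2.65e-06) and the lower one Vcam1 (-1.74, adjusted p = 0.000868), and the list median was -0.25. In MEP, where Junb, Jund, Egr1 and Ier2 fell, 3 of 4 basophil and mast cell markers were lower (3.68 to 7.15 TPM in WT, 1.20 to 2.85 TPM in KO), and 2 of 8 neutrophil markers were lower (31.7 to 110 TPM in WT, 12.2 to 29.5 TPM in KO). Of 6 LT-HSC markers tested in MEP, 2 were higher (3.84 to 14.6 TPM in WT, 15.5 to 18.1 TPM in KO). Of 3 T and NK cell markers tested there, 2 were lower (11.3 to 21.1 TPM in WT, 4.54 to 9.36 TPM in KO). The 7 MEP markers summed to 6781 to 7856 TPM in WT MEP and 4934 to 5496 TPM in KO MEP, with 2 higher and 1 lower. That sum rested largely on Car1, the lower one, which averaged 3335 TPM over these libraries (log2 fold change -1.09, adjusted p = 0.00477). Epor and Klf1 were the higher ones (0.43 and 0.37, adjusted p = 0.000269 and 0.00625), and the median of the list was -0.02. In CMP, where Ier2 fell, 6 of 7 MEP markers were higher (1275 to 1383 TPM in WT, 1603 to 1949 TPM in KO) and 4 of 7 GMP markers lower (3982 to 4863 TPM in WT, 1778 to 2747 TPM in KO). In CMP, 4 of 6 basophil and mast cell markers were also lower (107 to 274 TPM in WT, 76.6 to 84 TPM in KO), as were 5 of 8 neutrophil markers (73.8 to 328 TPM in WT, 41.7 to 78.2 TPM in KO). In LT-HSC the neutrophil markers summed to 453 to 2750 TPM in WT and 406 to 412 TPM in KO, and the basophil and mast cell markers to 4.68 to 14.3 TPM in WT and 23.5 to 36.2 TPM in KO, with none called. The part of these cells in the results was not tested.

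The difference between the genotype effects was tested within mice, as the interaction of genotype and population with the mouse as a block. Junb, Jund and Ier2 had different genotype effects between populations, and so did Fos and Dusp1 in a single contrast each. Between GMP and CMP 3 of 9 members were called, all with the higher effect in GMP (21.0% of 18523 genes, 10.9% higher and 10% lower). Between MEP and CMP 3 of 9 were called, 1 higher and 2 lower (13.1% of all genes, 5.67% higher and 7.38% lower), and between MEP and GMP 3 of 9, all lower in MEP (26.8% of all genes, 12.2% higher and 14.6% lower). For Junb the log2 fold change in MEP was 1.69 below that in GMP (-1.69, SE 0.14, adjusted p = 2.86e-06) and 1.03 below that in CMP (-1.03, adjusted p = 0.000434), and that in GMP was 0.66 above that in CMP (adjusted p = 0.00476). Jund had an effect in MEP lower by -0.78 than in CMP (adjusted p = 0.00534) and by -0.61 than in GMP (adjusted p = 0.0124). The Ier2 effect was 0.67 higher in GMP than in CMP (adjusted p = 0.00789) and differed by -0.99 between MEP and GMP (adjusted p = 0.000448). These differences of Junb, Jund and Ier2 passed the threshold in all 6 other settings and with each of the 6 mice left out.

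The Fos effect was 1.49 higher in GMP than in CMP (SE 0.42, adjusted p = 0.0263), but not past the threshold without mouse 301 (1.17, adjusted p = 0.13), without mouse 309 (0.97, adjusted p = 0.166) or without the mouse as a block (1.58, adjusted p = 0.159). For Dusp1 the effect in MEP was 1.12 above that in CMP (SE 0.32, adjusted p = 0.0409), and the adjusted p was 0.126 without mouse 301 and 0.185 without mouse 300, 304 or 309, with differences of 0.89 to 1.15. The Egr1 effect in MEP was not shown to differ from that in CMP (-1.32, adjusted p = 0.16) or GMP (-1.06, adjusted p = 0.255), and the Jun effect in MEP from that in CMP (-0.72, adjusted p = 0.314) or GMP (-0.96, adjusted p = 0.102).

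**Figure D3:**
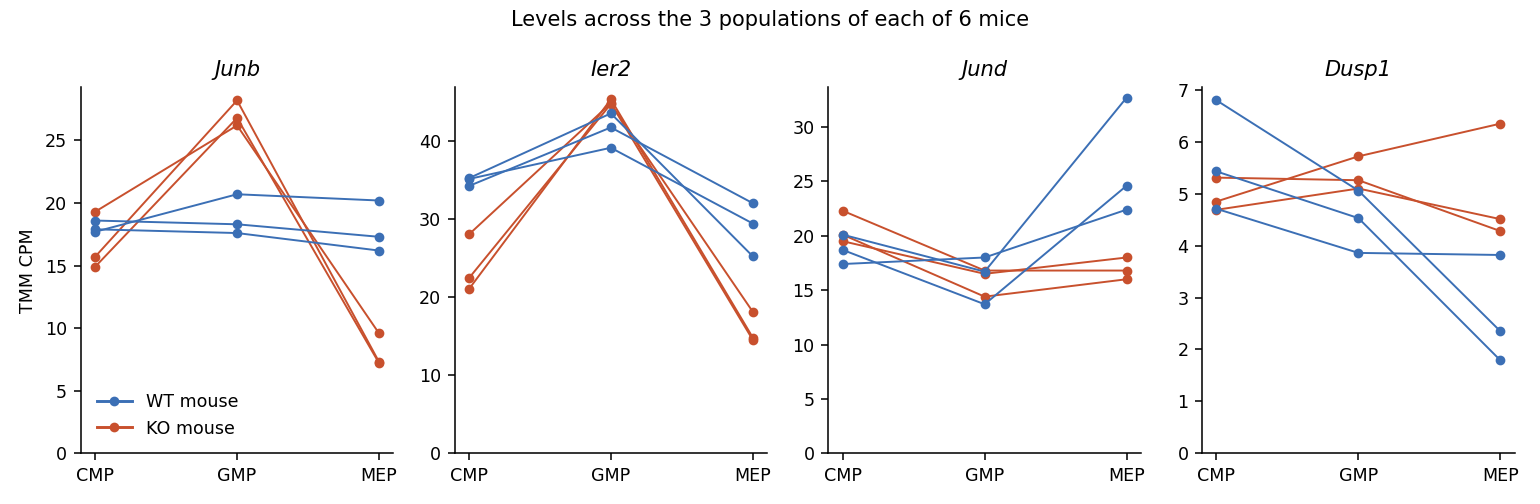
TMM-normalised CPM (vertical axis, linear) of Junb, Ier2, Jund and Dusp1 in CMP, GMP and MEP, with 1 line per mouse, WT in blue and KO in red. The Junb lines of the 3 WT mice stay between 16.2 and 20.7 CPM, while those of the 3 KO mice climb to 26.2 to 28.2 CPM in GMP and drop to 7.20 to 9.58 CPM in MEP.

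How the members differ between the precursor populations was compared within WT and within KO, on CPM (counts scaled to a common library size) after TMM normalisation over all 18 libraries. In WT, Fos and Fosl2 were highest in GMP and lowest in MEP, Egr1 was low in GMP, Jund was highest in MEP and Dusp1 lowest there. In WT, 5 of 9 members differed between GMP and CMP, 3 higher and 2 lower in GMP (45.2% of 18523 genes, 20.6% higher and 24.6% lower). Between MEP and CMP 5 differed in WT, 1 higher and 4 lower in MEP (70.6%, 33.5% higher and 37.1% lower), and between MEP and GMP 6 did, 2 higher and 4 lower (70.7%, 35.3% and 35.4%). In KO, 6 differed between GMP and CMP, 4 higher and 2 lower in GMP (59.1%, 27.1% and 32.0%). All 8 members that differed between MEP and CMP in KO were lower in MEP (69.5%, 33.4% higher and 36.1% lower), and 5 differed between MEP and GMP, 1 higher and 4 lower (70.0%, 36.4% and 33.6%). Summed TPM and CPM gave the same order of the populations for 17 of 20 gene and genotype pairs, the exceptions being Junb and Atf3 in WT and Dusp1 in KO. The median gene was shifted between these scales by -0.41 (log2) for GMP against CMP in KO, -0.15 in WT, and -0.36 and -0.29 for MEP against CMP in KO and WT. The KO and WT libraries of CMP, GMP and MEP were shifted by 0.10, -0.16 and 0.02 (KO less WT).

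In the Fos family, Fos averaged 2.62, 4.62 and 0.191 CPM in WT CMP, GMP and MEP and 4.13, 22.1 and 0.294 CPM in KO. The drop from GMP to MEP was thus steep in both genotypes, with log2 fold changes of -4.73 in WT and -6.29 in KO (adjusted p = 3.76e-07 and 4.29e-09). The rise from CMP to GMP was 1.06 in WT (adjusted p = 0.0135) and 2.55 in KO (adjusted p = 5.08e-06), and without mouse 300 the former was 0.67 (adjusted p = 0.135). Fosl2 followed the same order, with 21.2, 32.7 and 2.08 CPM in WT and 18.2, 36.1 and 2.24 CPM in KO. Its log2 fold change from GMP to MEP was -3.92 in WT and -4.01 in KO (adjusted p = 3.85e-10 and 1.95e-10). Fosb was lower in KO MEP than in KO CMP (log2 fold change -1.88, adjusted p = 0.0652), on 2 to 6 estimated counts per MEP library, and without mouse 308 the adjusted p was 0.334.

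In the Jun family, Junb did not differ between the WT populations as tested but differed between the KO populations. Junb averaged 18.1, 18.9 and 17.9 CPM in WT CMP, GMP and MEP, with differences of 0.06, -0.02 and -0.08 (log2) for GMP against CMP, MEP against CMP and MEP against GMP. Their 95% intervals ran from -0.17 to 0.28, -0.25 to 0.20 and -0.30 to 0.15. In TPM the WT means declined from 16.4 through 15.4 to 13.0, which is the scale on which the median gene also declined. The KO means were 16.6, 27.1 and 8.03 CPM, and all 3 pairs differed (log2 fold changes 0.71, -1.05 and -1.77, adjusted p = 2.65e-05, 5.42e-07 and 1.88e-09). Jund averaged 18.7, 16.2 and 26.5 CPM in WT, with MEP above CMP by 0.49 and above GMP by 0.71 (adjusted p = 0.00113 and 5.52e-05). In KO it averaged 20.6, 15.9 and 16.9 CPM, and MEP and GMP did not differ as tested (0.10, adjusted p = 0.466). Jun in KO was lower in MEP than in CMP (-0.88, adjusted p = 0.0113), while in WT the same difference was -0.16 (adjusted p = 0.62). Jun in WT GMP against WT CMP was -0.63 (adjusted p = 0.0837), and it was not called without mouse 300 (-0.35, adjusted p = 0.323), without mouse 309 (-0.64, adjusted p = 0.22) or without the mouse as a block (-0.57, adjusted p = 0.258).

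Egr1 averaged 7.08, 1.54 and 10.1 CPM in WT CMP, GMP and MEP and 7.87, 1.39 and 4.74 CPM in KO. It was lowest in GMP in both genotypes, with log2 fold changes against CMP of -2.36 in WT and -2.62 in KO (adjusted p = 0.000489 and 0.000132). Between MEP and CMP, Egr1 differed by -0.77 in KO (adjusted p = 0.0904), which was no longer called without mouse 301, 304 or 308 (-0.58, -0.92 and -0.81, adjusted p = 0.271, 0.135 and 0.172), by DESeq2 (-0.80, adjusted p = 0.212) or without the mouse as a block (-0.73, adjusted p = 0.211). Ier2 averaged 34.9, 41.4 and 28.8 CPM in WT and 23.8, 44.9 and 15.8 CPM in KO. The order GMP, CMP, MEP was the same in both genotypes, with log2 fold changes against CMP of 0.92 and -0.59 in KO (adjusted p = 6.75e-06 and 0.000317) and 0.25 and -0.27 in WT (adjusted p = 0.0844 and 0.0387). The step from CMP to GMP was the larger in KO by the interaction given for Ier2, whereas that from CMP to MEP was not shown to differ between the genotypes (-0.32, adjusted p = 0.262). In WT the difference between GMP and CMP was no longer called without mouse 300, 301, 305 or 309 or with the length offset (adjusted p = 0.106 to 0.239), while it stayed between 0.22 and 0.30. That between MEP and CMP in WT was not called without mouse 309 (-0.18, adjusted p = 0.258).

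Dusp1 declined from CMP through GMP to MEP in WT, with 5.65, 4.49 and 2.65 CPM. The log2 fold change from CMP to MEP was -1.10 (adjusted p = 0.000722) and from GMP to MEP -0.78 (adjusted p = 0.00881), the latter not called without mouse 309 (-0.53, adjusted p = 0.11). In KO, Dusp1 averaged 4.95, 5.36 and 5.05 CPM and none of the 3 pairs differed as tested (log2 fold changes 0.11, 0.01 and -0.10, adjusted p = 0.699, 0.965 and 0.714). The 95% interval for KO MEP against KO CMP ran from -0.49 to 0.52.

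The spread between mice of a group differed among the members and, for some of them, among the populations. The biological coefficient of variation of Ier2, Junb and Jund was 8.0% to 13.6% in the precursors, close to the median of 11.8% to 12.1% over all genes tested. Fos reached 50.8% in CMP and 43.4% in MEP, above 98.7% and 96.7% of the genes tested there, but only 17.4% in GMP. Egr1 reached 61.1% and Jun 37.5% in GMP, above 99.3% and 95.7% of the genes tested, while Egr1 had 18.4% in CMP and Jun 15.7% in MEP. Fosb had 59.2% in CMP, above 99.2%. Between these lay Fosl2 with 11% to 21.2% and Dusp1 with 14.9% to 26.2%. Fos in MEP rested on 4 to 20 estimated counts per library and Fosb in CMP on 6 to 39. The percentiles were taken over genes of all levels, and the part of low counts in them was not tested. In LT-HSC the median gene had 57.9%, and Fos 81.1%. Fos was lowest in WT mouse 300 and in KO mouse 301 in all 3 populations. Between the highest and the lowest mouse, Fos TPM differed by a factor of 4.53 in WT CMP, 3.99 in KO CMP and 1.37 in KO GMP. Across the 18 precursor libraries, the deviations of Jun, Fosb and Egr1 from their group means went with those of Fos (Pearson r 0.72, 0.71 and 0.52), and those of Jun with those of Egr1 (0.76). With a pseudocount of 0.1 in place of 1, the r with Fos was 0.62 for Jun, 0.44 for Egr1 and 0.45 for Fosb, which rested on 1 to 39 estimated counts per precursor library. For Junb, Jund and Dusp1 the correlations with Fos were 0.21, -0.13 and -0.16. These are descriptions, in which libraries of 1 mouse share an animal and a sort.

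**Figure D4:**
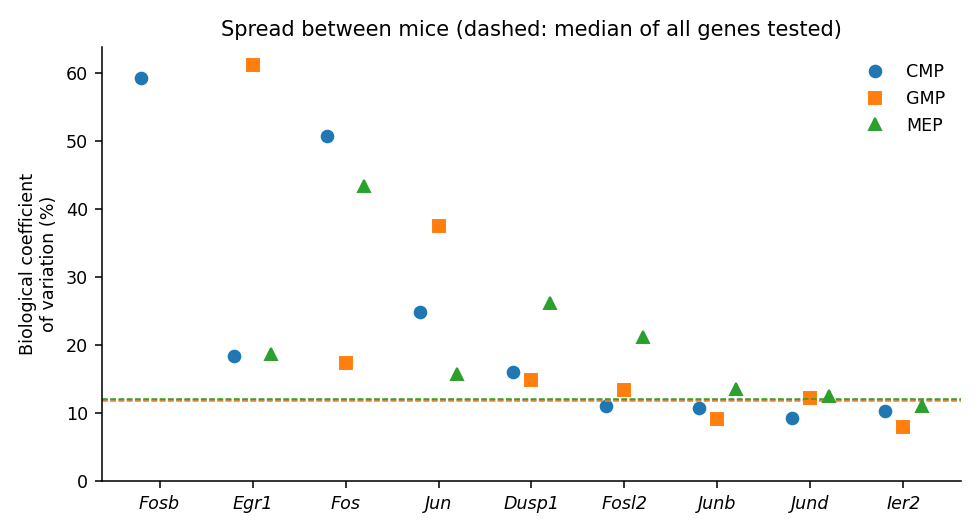
Biological coefficient of variation in percent (vertical axis) of the members in CMP, GMP and MEP, as edgeR's tagwise estimate within each population, with the median over all genes tested as a dashed line. Ier2, Junb and Jund lie near that median of 11.8% to 12.1%, and Fos and Fosb in CMP and Egr1 in GMP lie above 50%.

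The genes whose log2 CPM followed that of Fos most closely over the 18 precursor libraries, among 13187 genes, were Mtmr6, Tctex1d1 and Tctex1d2 (Pearson r 0.97 each), and Plau and Adgre1 (0.96 each). Among the members Fosl2 came closest (0.85), and Egr1 ran opposite to Fos (-0.59). For the deviations from the group means, the 5 closest genes were Epha2 (0.92), Ppp1r21 (0.89), Clec7a (0.88), Plau (0.87) and Klrb1f (0.86). Plau, which encodes urokinase, was in both lists, and in neither with a pseudocount of 0.1. These libraries share mice and populations, so the values describe likeness only.

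Of 11 other AP-1 basic leucine zipper genes tested in GMP, 4 were higher and 2 lower in KO, while 1 of 11 was higher in CMP and 1 of 10 each was higher and lower in MEP. The shares of all genes called in these comparisons are those given with the members. Jdp2 and Batf, which encode Jun dimerization partners, rose in KO GMP by 0.92 and 0.63 (log2, adjusted p = 4.02e-05 and 0.00182), and so did Mafg (0.29, adjusted p = 0.0204), a small Maf protein. Mafk, the small subunit of NF-E2, a factor of erythroid cells and platelets, rose in CMP (0.22, adjusted p = 0.034) and MEP (0.35, adjusted p = 0.00424). The list medians were 0.05, -0.14 and 0.00 in CMP, GMP and MEP.

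Other immediate early genes were called in both directions, 8 higher and 5 lower of 30 in CMP, 9 and 5 of 30 in GMP, and 5 and 8 of 25 in MEP. Of all genes tested, 23.4%, 33.9% and 29.4% were called in CMP, GMP and MEP. The median log2 fold changes of this list were 0.04, 0.18 and -0.13. Myc and Nr4a2 fell in all 3 precursor populations. Myc, the growth-promoting transcription factor, changed by -0.27, -0.23 and -0.43 in CMP, GMP and MEP (adjusted p = 0.084, 0.0546 and 0.00409), and the orphan nuclear receptor Nr4a2 by -1.13, -1.09 and -1.68 (adjusted p = 0.000959, 0.00149 and 0.00208). Klf4, a monocyte-associated zinc finger factor, fell in CMP (-3.65, adjusted p = 0.00434), where the stress-induced Ier3 rose (0.90, adjusted p = 0.00787). Btg2, an antiproliferative gene, fell in GMP (-0.75, adjusted p = 0.00153) and rose in MEP (1.35, adjusted p = 0.013). The growth arrest gene Gadd45g fell in GMP (-1.17, adjusted p = 0.0228) and Rhob, of a small GTPase, in MEP (-0.99, adjusted p = 0.035).

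Feedback inhibitors of the MAPK pathway, to which Dusp1 belongs by function, were called 2 higher and 3 lower of 12 in CMP, 0 and 4 of 11 in GMP, and 2 and 5 of 13 in MEP, with medians of -0.05, -0.32 and -0.22. The shares called among all genes tested were 23.4%, 33.9% and 29.4% in these populations. In GMP, Dusp6, the phosphatase of ERK, changed by -1.21 (adjusted p = 0.000114), Dusp2 by -0.45 and Dusp7 by -0.41 (adjusted p = 0.0199 and 0.0105). Spry4 and Spry2, which restrain receptor tyrosine kinase signalling, changed by -3.34 and -2.11 in MEP (adjusted p = 3.78e-05 and 0.000254), and Spry2 by -0.82 in CMP (adjusted p = 0.00411). Spry1 rose in CMP and MEP (0.68 and 1.28, adjusted p = 0.0135 and 0.00491), and Dusp5 in CMP (0.79, adjusted p = 0.00759).

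Upstream of these genes, MAPK kinases and the factors of the SRF and CREB branches were called 0 higher and 6 lower of 25 in CMP, 9 and 5 of 25 in GMP, and 4 and 6 of 25 in MEP, with medians of -0.04, 0.09 and 0.03. Beside these counts, 23.4%, 33.9% and 29.4% of all genes tested were called in CMP, GMP and MEP. Map3k1 (-0.27, -0.23 and -0.36), Mapk9 (-0.17, -0.35 and -0.22), which encodes a Jun kinase, and Rps6ka2 (-2.58, -0.48 and -1.0), which encodes a ribosomal S6 kinase, were lower in CMP, GMP and MEP (largest adjusted p = 0.0769, 0.0441 and 0.0121). In GMP, Rps6ka3 (0.83), Mrtfa (0.81), the actin-regulated partner of serum response factor, and Rps6ka1 (0.73) rose (adjusted p = 0.000591, 2.12e-05 and 4.23e-05). In MEP, Elk3 fell (-1.14, adjusted p = 0.0202) and Elk1 and Rps6ka1 rose (0.47 and 0.53, adjusted p = 0.00787 and 0.0312). Creb1 and Mapk3, the kinase ERK1, fell in CMP (-0.32 and -0.29, adjusted p = 0.00573 and 0.029).

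Heat shock genes, a second group known to rise with handling, were called 2 higher and 1 lower of 11 in CMP, 1 and 2 of 12 in GMP, and 1 and 2 of 11 in MEP. Among all genes tested, 23.4%, 33.9% and 29.4% were called in CMP, GMP and MEP, so these counts lie near or below the shares. The medians of the heat shock genes were 0.01, -0.02 and 0.02. Hsp90aa1, the inducible cytosolic Hsp90, was higher in KO in all 3 populations (0.33, 0.27 and 0.28, adjusted p = 0.0415, 0.0243 and 0.0603), and the co-chaperone Bag3 lower (-0.53, -0.55 and -0.62, adjusted p = 0.0103, 0.000929 and 0.000805). Summed, the 13 heat shock genes stood at 4737 to 5309 TPM in WT GMP and 4119 to 4786 TPM in KO GMP. The part of handling in the levels of the members was not tested.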

How the data were processed

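For each library the authors deposited estimated counts and TPM per transcript from kallisto 0.43.1 with the Ensembl 84 mouse transcripts (GRCm38). The effective transcript length deposited with them served as an alternative offset. Of 115088 transcripts, 114200 (99.2%) were paired with GENCODE vM21 genes, and TPM and estimated counts were added up over the transcripts of each gene, then rounded for testing. KO and WT were compared per population in edgeR 4.0.16 under R 4.3.3 (TMM, filterByExpr, quasi-likelihood test, genotype only), with Benjamini-Hochberg adjustment and an FDR of 0.1. Interactions and population contrasts came from a joint model of the 18 precursor libraries in which the mouse was a block. SE was taken as |log2 fold change| over the root of F. The fits were tested on simulated data with known changes. Those of the precursors found all or nearly all genes changed 4-fold, and that of LT-HSC found none. Every simulated gene had about the spread of the median gene of its population, and no changed gene was low in counts. These outcomes therefore do not cover smaller changes, or members with low counts or another spread.

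The members and the gene lists were chosen with earlier results of these data known. Beside all members and Arid1a, the genes named are, of each list, those called in CMP, GMP and MEP with the same sign and the 3 largest called changes per comparison with a mean of at least 1 TPM, and the 5 genes most like Fos by Pearson r of log2(CPM + 1). Of the cell marker lists, counts and summed levels are given, with a few genes and list medians beside sums that rested largely on a single gene.

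The mouse numbers do not pair WT with KO mice. Pairs (300 with 301, 305 with 304, 309 with 308, and in LT-HSC 245 with 244 and 269 with 270) come from the order of expression columns in the supplementary tables, a pairing the paper does not state. Deviations of paired mice from their group means correlated with r of 0.25, 0.41 and 0.26 in CMP, 0.42, 0.37 and 0.42 in GMP, -0.02, 0.40 and 0.29 in MEP, and 0.32 in LT-HSC. WT and KO mice not so paired gave -0.30 to 0.10 in CMP, -0.27 to -0.16 in GMP, -0.40 to 0.24 in MEP and -0.32 in LT-HSC. In MEP, WT mouse 300 went more with KO mouse 308 (0.24) than with KO mouse 301. With 2 libraries per genotype, the LT-HSC values can differ only in sign. Totals of 40804031 to 65930737 estimated counts per library cover counting error only. The settings tried beside these were size factors by median of ratios, all genes without the low-count filter, the length offset, DESeq2 1.42.0, 1 fit of all 18 libraries, an FDR of 0.05, fits with and without the block, and libraries or mice left out. Promoter sequences are RefSeq's. ATAC-seq and ChIP-seq were not analysed here.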

Additional observations from a re-analysis of the deposited data

Results flagged for a closer look

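The genotype effect (log2 fold change of KO less WT) of 5 genes differed between precursor populations in the test of the difference itself, an interaction term in edgeR's quasi-likelihood test with the mouse as a block. In each of the 3 contrasts 3 of 9 members were called. Of all 18523 genes, 21.0% were called for GMP against CMP, 13.1% for MEP against CMP and 26.8% for MEP against GMP. For Junb, the effect in GMP exceeded that in CMP by 0.66, and the effect in MEP differed from that in CMP by -1.03 and from that in GMP by -1.69 (adjusted p = 0.00476, 0.000434 and 2.86e-06). For Jund, the effect in MEP differed by -0.78 from that in CMP and by -0.61 from that in GMP (adjusted p = 0.00534 and 0.0124). For Ier2, the effect in GMP exceeded that in CMP by 0.67, and the effect in MEP differed from that in GMP by -0.99 (adjusted p = 0.00789 and 0.000448). For Fos, the effect in GMP exceeded that in CMP by 1.49 (adjusted p = 0.0263), and without mouse 309 by 0.97 (adjusted p = 0.166). For Dusp1, the effect in MEP exceeded that in CMP by 1.12 (adjusted p = 0.0409), and without mouse 300 by 0.89 (adjusted p = 0.185).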

How the results depend on the processing

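The counts of members called in 13 comparisons were recomputed under 166 alternatives, and 156 of these lay within 1.5 times the count as reported. With the replicate block, that is WT and KO mice paired, 2 members were called in CMP in place of 1 (Fos beside Ier2), and the counts in LT-HSC, GMP and MEP stayed within 1.5 times. DESeq2 called 5 members in place of 3 in the difference of genotype effects between MEP and GMP, where Fos (-1.54, adjusted p = 0.0421) and Jun (-1.0, adjusted p = 0.0506) were added. Between GMP and CMP in WT, an FDR of 0.05 and no replicate block both gave 3 in place of 5. With each library left out, KO against WT gave 1 to 2 members in CMP, 2 to 3 in GMP and 4 to 6 in MEP. In LT-HSC this leaves a lone library of a genotype, so no count is given. With each mouse left out, the genotype effects gave 2 to 3 members between GMP and CMP, 2 to 3 between MEP and CMP and 3 to 5 between MEP and GMP. The populations gave 2 to 5, 4 to 6 and 5 to 7 members in WT and 6 throughout, 5 to 8 and 5 to 6 in KO, in the order GMP against CMP, MEP against CMP and MEP against GMP. Leaving out a pair of mice together was chosen after seeing the data. With a pseudocount of 0.1 in place of 1, 2 of the 5 genes most like Fos in level and 4 of the 5 in deviations remained among the first 5. Of 1469 member values under alternatives, 53 were no longer past the threshold, 26 newly passed it, 0 called values changed sign and 41 uncalled values did. Between KO and WT, Fos in MEP rests on 4 to 20 estimated counts per library, and its 95% interval of -1.05 to 2.38 leaves room for large differences. Fosb in GMP and MEP and Atf3 in all precursors did not pass the filter on low counts, so the main fits did not test them. With 2 libraries per genotype, the absence of calls in LT-HSC does not show that a member did not differ. The 95% interval of the log2 fold change there ran from -1.23 to 1.43 for Ier2, but from -6.77 to 3.75 for Fos.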
